A study of Mus musculus with 23 samples.

Results

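The genes examined were those of the proteasome, the protease complex that degrades proteins tagged with ubiquitin. They were taken from the count table by symbol: every protein-coding gene named Psma, Psmb, Psmc or Psmd followed by a number, without the interferon-inducible immune subunits Psmb8, Psmb9 and Psmb10. This gave 36 of the 54838 genes in the table, of which 16 code for the core particle (Psma and Psmb) and 20 for the regulatory particle (Psmc and Psmd). The 20 regulatory genes included 3 assembly chaperones that carry a Psmd symbol, Psmd5, Psmd9 and Psmd10.

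Gene expression had been measured by RNA sequencing of the liver of C57BL/6J mice, an inbred laboratory strain. All mice received injections, either of a recombinant protein at 1 µg per g of body weight or of vehicle, 3 in all, 1 day apart. In batch 2, 4 libraries came from mice given FSTL3 (follistatin-like 3, a secreted protein that binds activins), 4 from FCN2 (ficolin-2, which recognises sugars on microbes and starts complement), 4 from EPDR1 (ependymin-related protein 1, a secreted glycoprotein) and 4 from the vehicle of that batch. In batch 1, 3 libraries came from LBP (lipopolysaccharide-binding protein, which carries bacterial lipopolysaccharide to its receptors), numbered 2 to 4, and 4 from the vehicle of that batch. The series title places the study in cardiometabolic and coronary artery disease. The labels do not say which vehicle was used, nor that each library came from a separate mouse, and the p-values can only reflect how these libraries vary, which may be technical.

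A proteasome is built from a barrel of stacked rings, the core particle, capped by a regulatory particle. The outer rings of the barrel are made of the alpha subunits (Psma), which form the gate, and the inner rings of the beta subunits (Psmb), of which Psmb5, Psmb6 and Psmb7 carry the active sites. The base of the regulatory particle is a ring of ATPases (Psmc) that unfolds substrates, with the large scaffold subunits Psmd1 and Psmd2 and the ubiquitin receptor Psmd4. The lid (Psmd3, Psmd6, Psmd7, Psmd8, Psmd11, Psmd12, Psmd13 and Psmd14) removes ubiquitin chains. When proteasome activity falls short, the transcription factor NFE2L1 is known to raise subunit genes together through antioxidant response elements in their promoters, an element that NFE2L2, the factor of the oxidative stress response, also binds.

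The core of that element, TGACNNNGC or its reverse complement GCNNNGTCA, was looked for on both strands of RefSeq promoter windows on GRCm38.p6, from 250 bases before to 50 bases after the transcript start. A window was held for 29 of the 36 genes, and 5 of them (17.2%) held the letters, against 3781 of 27025 genes (14%). The matches lay in 2 of 12 core and 3 of 17 regulatory genes. They are shown because their genes include the catalytic subunits Psmb5 and Psmb6, whose levels are given below, and they are printed from 5′ to 3′ on the strand of the gene with the element in capitals and up to 20 bases on each side.
Psmb5, chr14:54618014-54618062, minus strand: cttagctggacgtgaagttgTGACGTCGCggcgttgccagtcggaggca
Psmb6, chr11:70525328-70525356, plus strand: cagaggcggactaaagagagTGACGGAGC
Psmc6, chr14:45329577-45329625, plus strand: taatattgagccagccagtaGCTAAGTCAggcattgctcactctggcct
Psmd9, chr5:123228139-123228187, plus strand: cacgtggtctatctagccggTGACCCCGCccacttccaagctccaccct
Psmd12, chr11:107479278-107479309, plus strand: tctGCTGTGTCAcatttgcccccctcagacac
The element started 9 bases before the transcript start in Psmb6, 31 in Psmd9, 47 in Psmb5, 227 in Psmc6 and 247 in Psmd12. The last 2 hold the reversed letters. Psmd9 begins further upstream in the annotation used for counting than in RefSeq. The CCAAT box, read as CCAAT or ATTGG, was in 12 of the 29 windows (41.4%) and in 41.1% of all genes, and the heat shock element core GAANNTTC was in 1 of the 29 (3.45%) and in 9.04% of all genes. These letter matches do not show binding.

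Libraries held between 773499 and 21892416 counts in total, with a median of 3712802, and the FSTL3 libraries from 9298871 to 10930800. Hepatocyte markers fixed as a list were all detected in every library (10 of 10). The FSTL3 libraries and LBP replicate 2 stood apart. In FSTL3 livers the small nuclear RNA Rn7sk took 0.568% to 0.660% of counts, against 0.000507% to 0.000742% with the vehicle of batch 2, and mitochondrial protein-coding genes took 1.97% to 2.13%, against 7.36% to 11.8%. LBP replicate 2 held 0.211% of its counts in albumin (Alb), where every other library held at least 5.26%, and its hepatocyte markers summed to 2.6% of counts, against 12.4% and 12.6% in the other 2 LBP libraries. Results that use LBP replicate 2 are therefore given with and without it. All 6 groups shared 1 estimate of the spread, so that library also bears on comparisons it is not part of.

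Among the 36 genes, 34 passed the filter on low counts and were tested. Psma8, a form of the alpha ring known from testis, had 0 to 3.89 CPM (read counts scaled to the size of the library), and Psmb11, the thymus form of Psmb5, had no read in any of the 23 libraries. Levels between genes were compared in TPM, which divides counts by exon length and scales them to the sum in the library, and taken as the median over the 23 libraries. Psma6, an alpha ring subunit, was highest at 259 TPM, followed by the beta subunit Psmb4 at 147 TPM and the ATPase Psmc1 at 140 TPM. The lowest tested genes were the chaperones Psmd9 at 10.4 TPM and Psmd5 at 12.3 TPM and the alpha subunit Psma3 at 13.5 TPM. By this measure, partners in 1 particle differed widely in RNA level. TPM here divides by all exon bases annotated for a gene, whichever transcripts are made. These 3 lowest genes had 7248, 7230 and 3894 exon bases, against a median of 2814 for the tested genes. Psmd1, with 7265, stood at 38.6 TPM. Of the catalytic subunits, Psmb6 (caspase-like activity) stood at 111 TPM, Psmb7 (trypsin-like activity) at 37.4 TPM and Psmb5 (chymotrypsin-like activity) at 32.5 TPM. Pseudogene copies named after these subunits held 1 to 13 reads each over the 23 libraries. Whether reads shared with such copies bear on the levels was not tested. The median over the 15 core genes with reads was 70.3 TPM and that over the 20 regulatory genes 68.8 TPM; by class it was 104 TPM for the base ATPases and 12.3 TPM for the chaperones, with alpha ring, beta ring, lid and other base genes between 67.1 and 70.7 TPM. Exons of 9 of the 36 genes overlap those of another gene; the overlap covers 25.5% of exon bases in Psmd9 and at most 12.1% in the others, and the recorded counting command sets no strand option.

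Summed over the core genes, the level was 763 to 909 TPM in FSTL3 livers, 1103 to 1330 TPM in FCN2 livers, 1109 to 1356 TPM in EPDR1 livers and 1199 to 1295 TPM with the vehicle of batch 2. In batch 1 it was 859 TPM in LBP replicate 2, 1278 and 1186 TPM in LBP replicates 3 and 4, and 1138 to 1293 TPM with vehicle. The FSTL3 libraries lay below every other library of batch 2. Summed over the regulatory genes, the level was 1005 to 1134 TPM in FSTL3 livers, 1192 to 1423 TPM in FCN2 livers, 1175 to 1456 TPM in EPDR1 livers and 1255 to 1505 TPM with the vehicle of batch 2. In batch 1 it was 1476 TPM in LBP replicate 2, 1478 and 1547 TPM in LBP replicates 3 and 4, and 1343 to 1572 TPM with vehicle. With TPM scaled to the nuclear protein-coding genes alone, the order turned for LBP replicate 2. Its core sum was then 1684 TPM and those of the other 2 LBP livers 1564 and 1449 TPM, against 1365 to 1497 TPM with vehicle. Its regulatory sum was 2893 TPM and those of the other 2 were 1809 and 1889 TPM, against 1566 to 1802 TPM with vehicle, without overlap. On that scale the FSTL3 livers still lay below every other library of batch 2 in both sums, at 1139 to 1205 TPM for the core and 1471 to 1505 TPM for the regulatory genes. The ratio of core to regulatory TPM was 0.759 to 0.801 in FSTL3 livers and 0.843 to 1.03 with the vehicle of batch 2, without overlap. It was 0.582 in LBP replicate 2, 0.767 and 0.865 in the other 2 LBP livers, and 0.823 to 0.908 with the vehicle of batch 1. FCN2 and EPDR1 livers overlapped the batch 2 vehicle in this ratio. Fold changes in FSTL3 livers moved with exon length over all genes, as described below. The sums and the ratio were not recomputed without that trend, and its part in them was not tested. In bulk tissue, fewer cells of a type and less RNA per cell cannot be told apart.

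**Figure D1:**
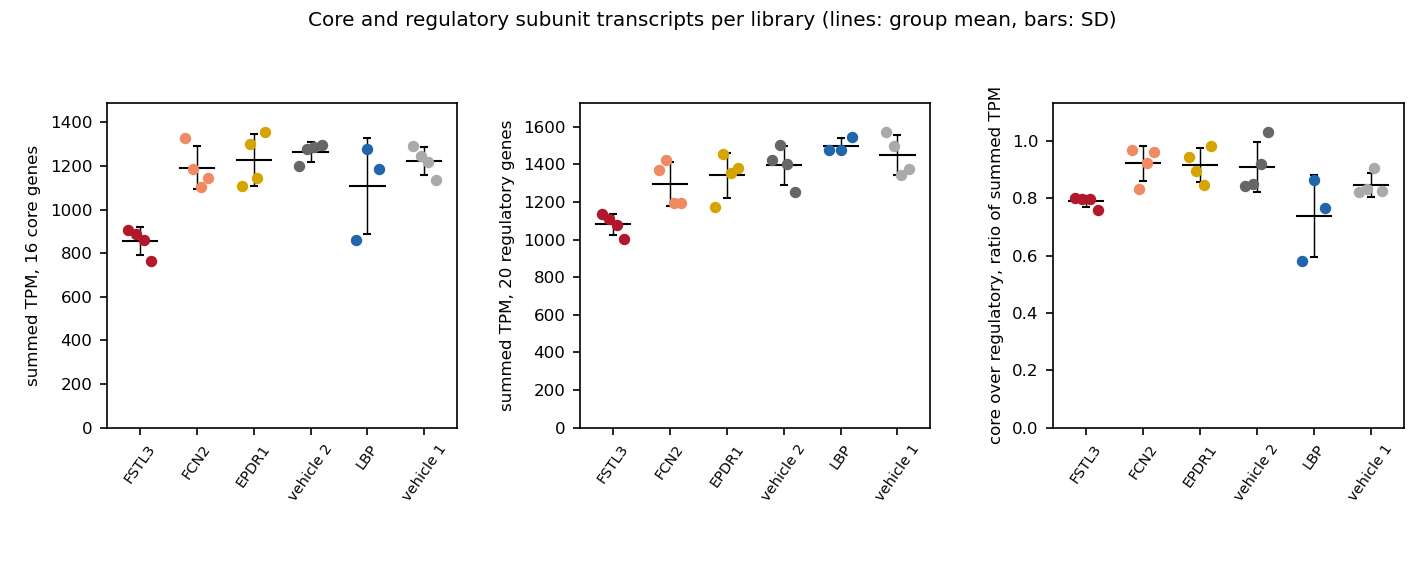
Summed TPM of the core genes, summed TPM of the regulatory genes and their ratio in each of the 23 libraries, by group; each point is 1 library, with lines at group means and bars for SD (n = 4, and 3 for LBP). The 4 FSTL3 points lie lowest within batch 2 in the first panel, at 763 to 909 TPM, and LBP replicate 2 has the lowest ratio of all, 0.582.

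**Figure D2:**
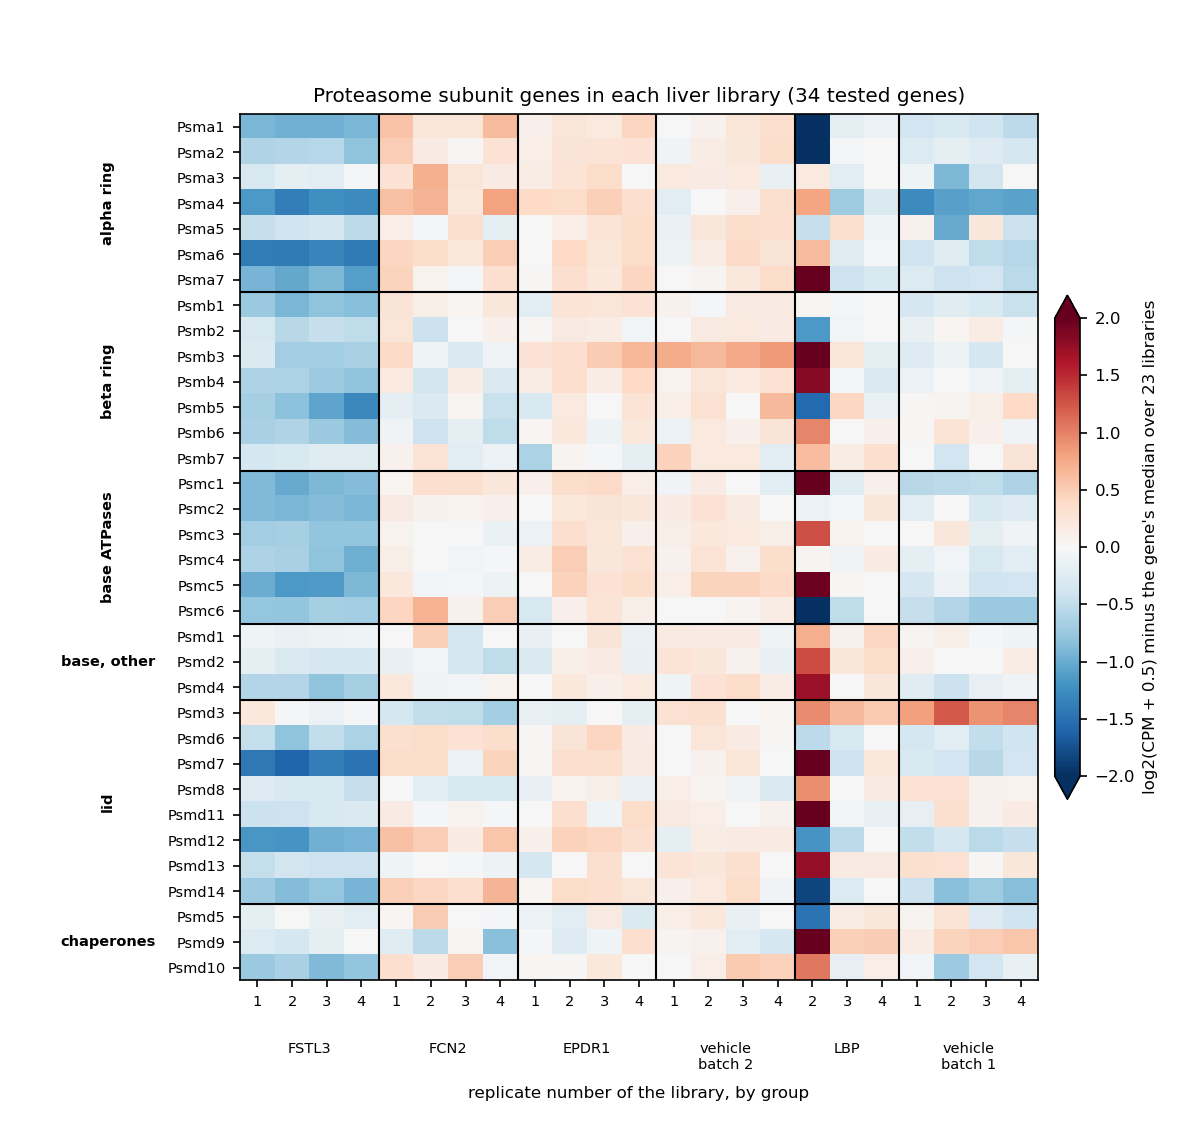
Heat map of the 34 tested genes (down, by subunit class) in the 23 libraries (across, by group), as log2(CPM + 0.5) minus the gene's median over all libraries; colours are cut at ±2. The FSTL3 columns are low for most genes, and LBP replicate 2 holds both the highest and the lowest values of several genes.

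In FSTL3 livers proteasome subunit RNA was lower than with the vehicle of batch 2 across both particles. Of the 34 tested genes 24 fell and none rose (edgeR's quasi-likelihood test, Benjamini-Hochberg adjusted p under 0.05 over all 11969 genes), where 16% of all genes fell and 23.2% rose. The fall was called for 13 of 14 core genes and 11 of 20 regulatory genes, and the fitted log2 fold change was negative for all 34. The median log2 fold change was -0.92 for the core and -0.82 for the regulatory genes, against 0.06 for all genes. By class, 6 of 7 alpha, 7 of 7 beta, 4 of 6 base ATPase, 5 of 8 lid, 1 of 3 other base and 1 of 3 chaperone genes fell. The 24 genes together with 4 others had no overlap in CPM between the groups, 28 of 34 in all, where 23.8% of all genes lay lower without overlap. Without LBP replicate 2, 29 genes fell, where 25.4% of all genes did. Together the 36 genes took 0.194% to 0.218% of counts in FSTL3 livers, against 0.305% to 0.332% with vehicle.

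The 4 largest falls came from 4 classes. Psma6 (chr12:55384222-55418454 on GRCm38, plus strand) had 53.7, 53.0, 56.9 and 53.1 CPM in FSTL3 livers, against 133, 157, 185 and 171 CPM with vehicle. Every FSTL3 library lay below every vehicle library, and the log2 fold change was -1.57 ± 0.18 (SE; adjusted p = 6.97e-07, edgeR). Psmd7 (chr8:107580381-107588464, minus strand), the lid subunit that pairs with the deubiquitinase Psmd14, had 34.9, 31.2, 35.9 and 33.8 CPM in FSTL3 livers, against 94.1, 101, 111 and 94.4 CPM with vehicle, again without overlap (log2 fold change -1.56 ± 0.44, adjusted p = 0.00677). The ATPase Psmc5 had 38.5, 34.5, 34.6 and 41.2 CPM in FSTL3 livers, against 84.2, 105, 105 and 99.9 CPM with vehicle. The groups did not overlap, and the log2 fold change was -1.40 ± 0.29 (adjusted p = 0.000554). Psmb3, a beta subunit without an active site, had 14.9, 11.2, 11.1 and 11.6 CPM in FSTL3 livers, against 29.1 to 33.7 CPM with vehicle (log2 fold change -1.36 ± 0.43, adjusted p = 0.016).

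All 3 catalytic subunits fell. Psmb5, the target of the proteasome inhibitor bortezomib, had 8.82, 7.82, 6.60 and 5.50 CPM in FSTL3 livers, against 15.7, 17.6, 14.1 and 22.6 CPM with vehicle (log2 fold change -1.28 ± 0.24, adjusted p = 0.000196). In the libraries of this comparison it was counted from 34 to 387 reads, and over the 23 libraries from as few as 4 (LBP replicate 2). Psmb6 had 63.0, 64.8, 58.8 and 53.9 CPM in FSTL3 livers, against 91.1, 114, 106 and 118 CPM with vehicle (log2 fold change -0.84 ± 0.19, adjusted p = 0.00134). Neither of these overlapped between the groups. Psmb7 had 42.1, 43.6, 45.4 and 45.5 CPM in FSTL3 livers, against 74.0, 61.5, 61.9 and 45.8 CPM with vehicle; its lowest vehicle library lay just above the highest FSTL3 library (log2 fold change -0.46 ± 0.18, adjusted p = 0.0489). Its call was lost when any of most single libraries was left out, as were those of Psma7 and Psmd13; Psma2 did not pass when replicate 4 of either group was left out, and the other 20 calls were lost by leaving out no single library of the comparison.

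**Figure D3:**
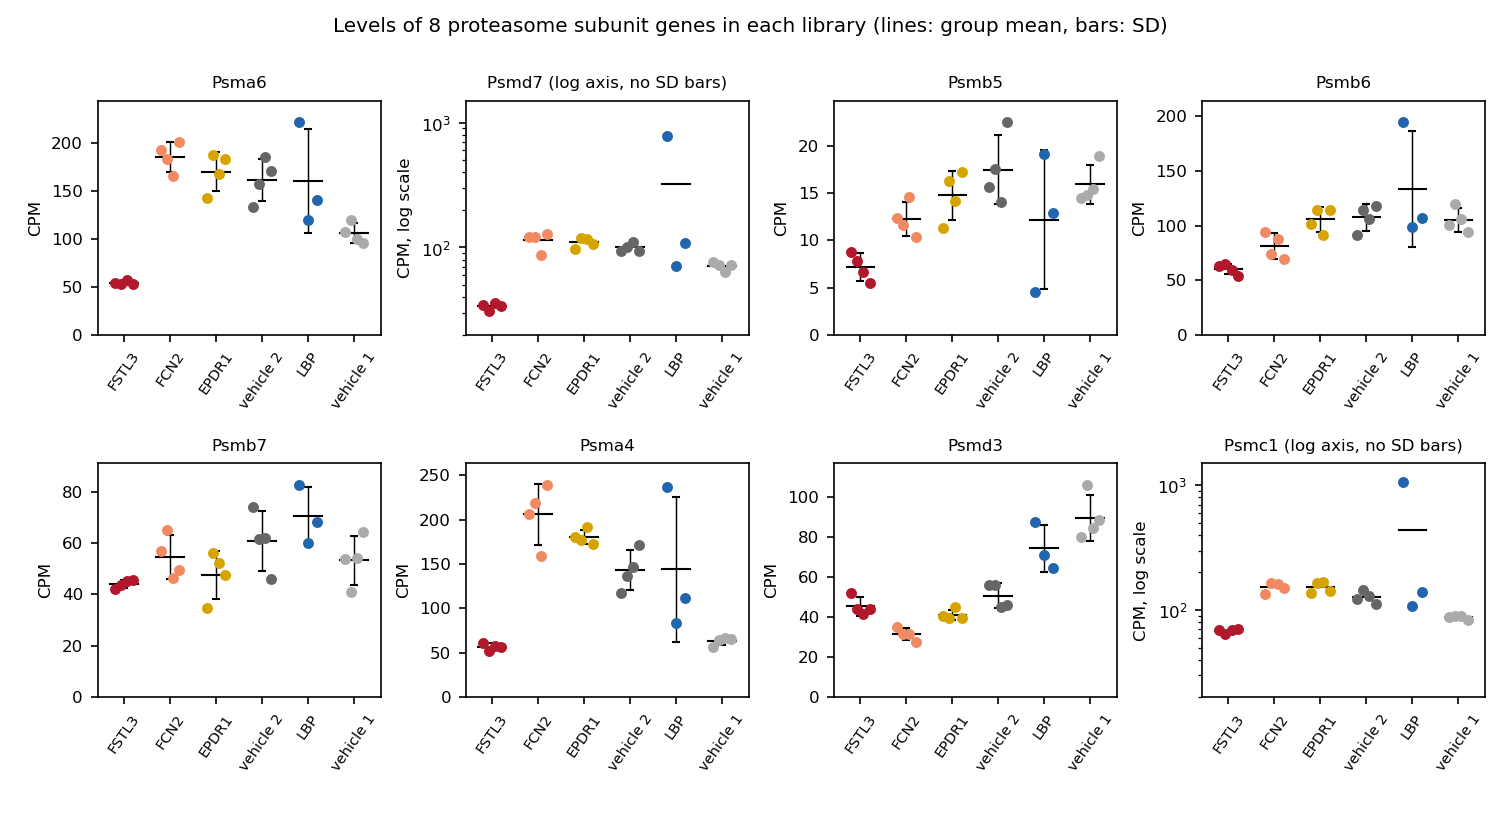
CPM of 8 genes in each library, by group; each point is 1 library, horizontal bars are group means and vertical bars SD (n = 4, and 3 for LBP). Psmd7 and Psmc1 are on a log axis without SD bars, because LBP replicate 2 stands at 790 and 1055 CPM. FSTL3 points lie below the batch 2 vehicle for Psma6, Psmd7, Psmb5 and Psmb6, and FCN2 points below it for Psmd3.

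At the small end of the called genes were, beside Psmb7, the beta subunit Psmb2, the lid subunit Psmd13 and the alpha subunit Psma5. Psmb2 had 41.0, 34.7, 37.1 and 35.9 CPM in FSTL3 livers, against 50.8, 58.2, 58.5 and 57.6 CPM with vehicle (log2 fold change -0.60 ± 0.19, adjusted p = 0.0136). Psmd13 had 36.3, 39.3, 37.9 and 38.0 CPM in FSTL3 livers, against 61.8, 59.2, 63.5 and 50.7 CPM with vehicle (log2 fold change -0.63 ± 0.24, adjusted p = 0.0427). Psma5 had 10.2, 10.7, 11.1 and 9.75 CPM in FSTL3 livers, against 12.9 to 18.3 CPM with vehicle (log2 fold change -0.65 ± 0.20, adjusted p = 0.0122). None of them overlapped between the groups. The 10 genes that did not pass were Psma3, the ATPases Psmc1 and Psmc6, the scaffold subunits Psmd1 and Psmd2, the lid genes Psmd3, Psmd8 and Psmd11, and the chaperones Psmd5 and Psmd9. Their log2 fold changes ran from -0.89 (Psmc1, adjusted p = 0.0954) to -0.11 (Psmd9, adjusted p = 0.808).

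The size of the difference moved with exon length. Over all 11969 tested genes, the log2 fold change of FSTL3 against vehicle and exon length had a Spearman correlation of 0.458, a description across genes that share the same libraries. Split by length into 20 equal bins, the shortest (median 834 bases) had a median log2 fold change of -0.81 and the longest (15301 bases) 1.04. Proteasome genes are short, with a median of 2814 exon bases against 4310 for all genes. The 24 called genes had a median of 2488 bases and the other 10 had 4502, and the correlation over the 34 genes was 0.603. Once each library's trend of expression on exon length had been removed, 12 of the 34 genes fell, 5 core and 7 regulatory, where 11.8% of all genes did, and the median log2 fold change was -0.57. All of the 12 except Psmd5 were also called with the trend in place. Psma6 stayed lower (log2 fold change -0.85, adjusted p = 0.000353), as did the ATPases Psmc2 (-1.17, adjusted p = 1.61e-06) and Psmc4 (-0.54, adjusted p = 0.00413) and the beta subunit Psmb1 (-0.98, adjusted p = 0.000116). The catalytic subunits did not pass: Psmb5 stood at -0.44 (adjusted p = 0.208), Psmb6 at -0.33 (adjusted p = 0.197) and Psmb7 at -0.31 (adjusted p = 0.305). Psma5 turned to 0.03 and Psmb2 to 0.12. With the trend removed and LBP replicate 2 also left out, a combination chosen after seeing the data, 29 genes fell, where 22.5% of all genes did.

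**Figure D4:**
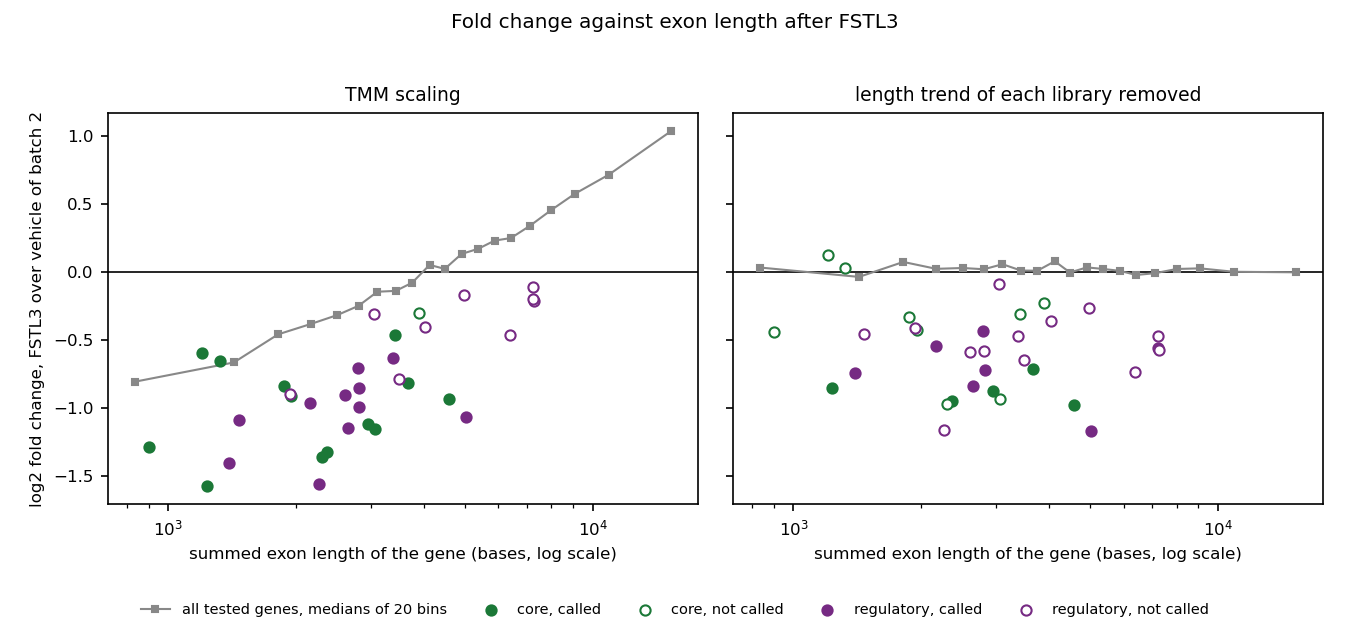
Log2 fold change of FSTL3 against the vehicle of batch 2 for the 34 genes by exon length (log axis), before (left) and after (right) each library's trend on exon length was removed; grey points are medians of all tested genes in 20 bins of length. Before removal the genes follow the slope of the grey points (Spearman correlation 0.603 over 34 genes); after it the correlation is -0.14 and most genes still lie below 0.

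Markers of other cells moved in the same comparison. Of the Kupffer cell markers (liver macrophages), 4 of 9 fell, with a median log2 fold change of -1.12 over the list and a summed share of 0.0159% to 0.0183% of counts in FSTL3 livers, against 0.0177% to 0.0461% with vehicle. All 9 were detected in each FSTL3 and vehicle library. Of the neutrophil markers, 2 of 6 could be tested and both fell, with a summed share of the list of 2.06e-05% to 6.23e-05% in FSTL3 livers, against 0.000297% to 0.00163% with vehicle. None of 8 tested pancreatic acinar markers passed, and none of 9 lymphocyte markers had enough reads to test. Among the 10 hepatocyte markers, Apoa1 and Fgb fell and Apob rose, and the summed share of the 10 was 12.5% to 13.2% in FSTL3 livers, against 10.5% to 11.8% with vehicle. In this comparison 16% of all genes fell and 23.2% rose. Without LBP replicate 2, 7 Kupffer, 2 neutrophil and 4 hepatocyte markers fell (25.4% of all genes did) and 2 hepatocyte markers rose (31.3%). The part of these shifts, and of the Rn7sk and mitochondrial shares above, in the subunit values was not tested. Those Rn7sk and mitochondrial shares were held by all FSTL3 libraries and by no other library. The injection and whatever else set these libraries apart therefore cannot be told apart here.

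Set against the vehicle of batch 1 instead, 10 of the 34 genes were lower in FSTL3 livers (13.2% of all genes), 4 core and 6 regulatory, with a median log2 fold change of -0.51. They included Psmb5 (log2 fold change -1.16 ± 0.25, adjusted p = 0.000896) and Psmb6 (-0.80), as well as Psmd3 (-0.98 ± 0.15, adjusted p = 3.05e-05), which did not pass against the vehicle of batch 2. Without LBP replicate 2 the count was 25 (23.4% of all genes), and with the trend on exon length removed it was 4 (10.5%). This contrast sets FSTL3 livers against another batch and holds that difference too.

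Direct contrasts with the other proteins of batch 2 gave like counts. Against EPDR1, 22 of 34 genes were lower in FSTL3 livers (18% of all genes) and none was higher, where 2877 of all 11969 genes were. Against FCN2, 22 were lower (18.4%) and 1, Psmd3, was higher (25.9%). These contrasts share the FSTL3 libraries with each other and with the contrast against vehicle, so their counts are not separate evidence. With the trend on exon length removed, 11 genes were lower than in EPDR1 livers (14% of all genes) and 15 lower than in FCN2 livers (17.2%), and none was higher than in FCN2 livers (18.8%). The alpha subunit Psma4 (chr9:54950790-54958030, plus strand) had 61.4, 52.2, 58.2 and 56.4 CPM in FSTL3 livers, against 180, 177, 192 and 173 CPM in EPDR1 livers (log2 fold change -1.66 ± 0.23, adjusted p = 8.05e-06). Against the 207, 219, 159 and 239 CPM of FCN2 livers its log2 fold change was -1.85 ± 0.23 (adjusted p = 2.01e-06). No library of either group came near the FSTL3 libraries. Psma6 stood at 142 to 188 CPM in EPDR1 livers and 165 to 201 CPM in FCN2 livers, and Psmd7 at 96.4 to 119 CPM and 87.3 to 128 CPM, and the log2 fold changes of FSTL3 were -1.65 and -1.78 for Psma6 and -1.70 and -1.76 for Psmd7. The lid subunit Psmd12 had 50.6, 49.9, 58.3 and 59.4 CPM in FSTL3 livers, against 122 to 158 CPM in EPDR1 livers and 128 to 172 CPM in FCN2 livers (log2 fold changes -1.39 and -1.52).

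The smallest called differences from EPDR1 were in Psmb2 (log2 fold change -0.54), Psma5 (-0.65), the ubiquitin receptor Psmd4 (-0.79) and Psmb6 (-0.81). Those from FCN2 were in Psmb2 (-0.46), Psma5 (-0.52) and Psma3 (-0.55). Psma3 had 17.4, 19.2, 18.5 and 21.3 CPM in FSTL3 livers, against 26.5, 36.0, 25.7 and 24.2 CPM in FCN2 livers, without overlap, and its call was lost without FCN2 replicate 2. With the trend on exon length removed, Psmb2 and Psma5 changed sign, to 0.23 and 0.061 against EPDR1 and 0.16 and 0.055 against FCN2. Among the catalytic subunits, Psmb5 was called against both (-1.03 and -0.77), Psmb6 against EPDR1 alone and Psmb7 against neither; with the length trend removed, Psmb5 stood at -0.12 and -0.02 and Psmb6 at -0.30 and -0.03, with no call. For Psmb6 against FCN2 the log2 fold change was -0.44 ± 0.19 (adjusted p = 0.0666), and whether it differs between the contrasts was not tested beyond the FCN2 and EPDR1 comparison below.

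**Figure D5:**
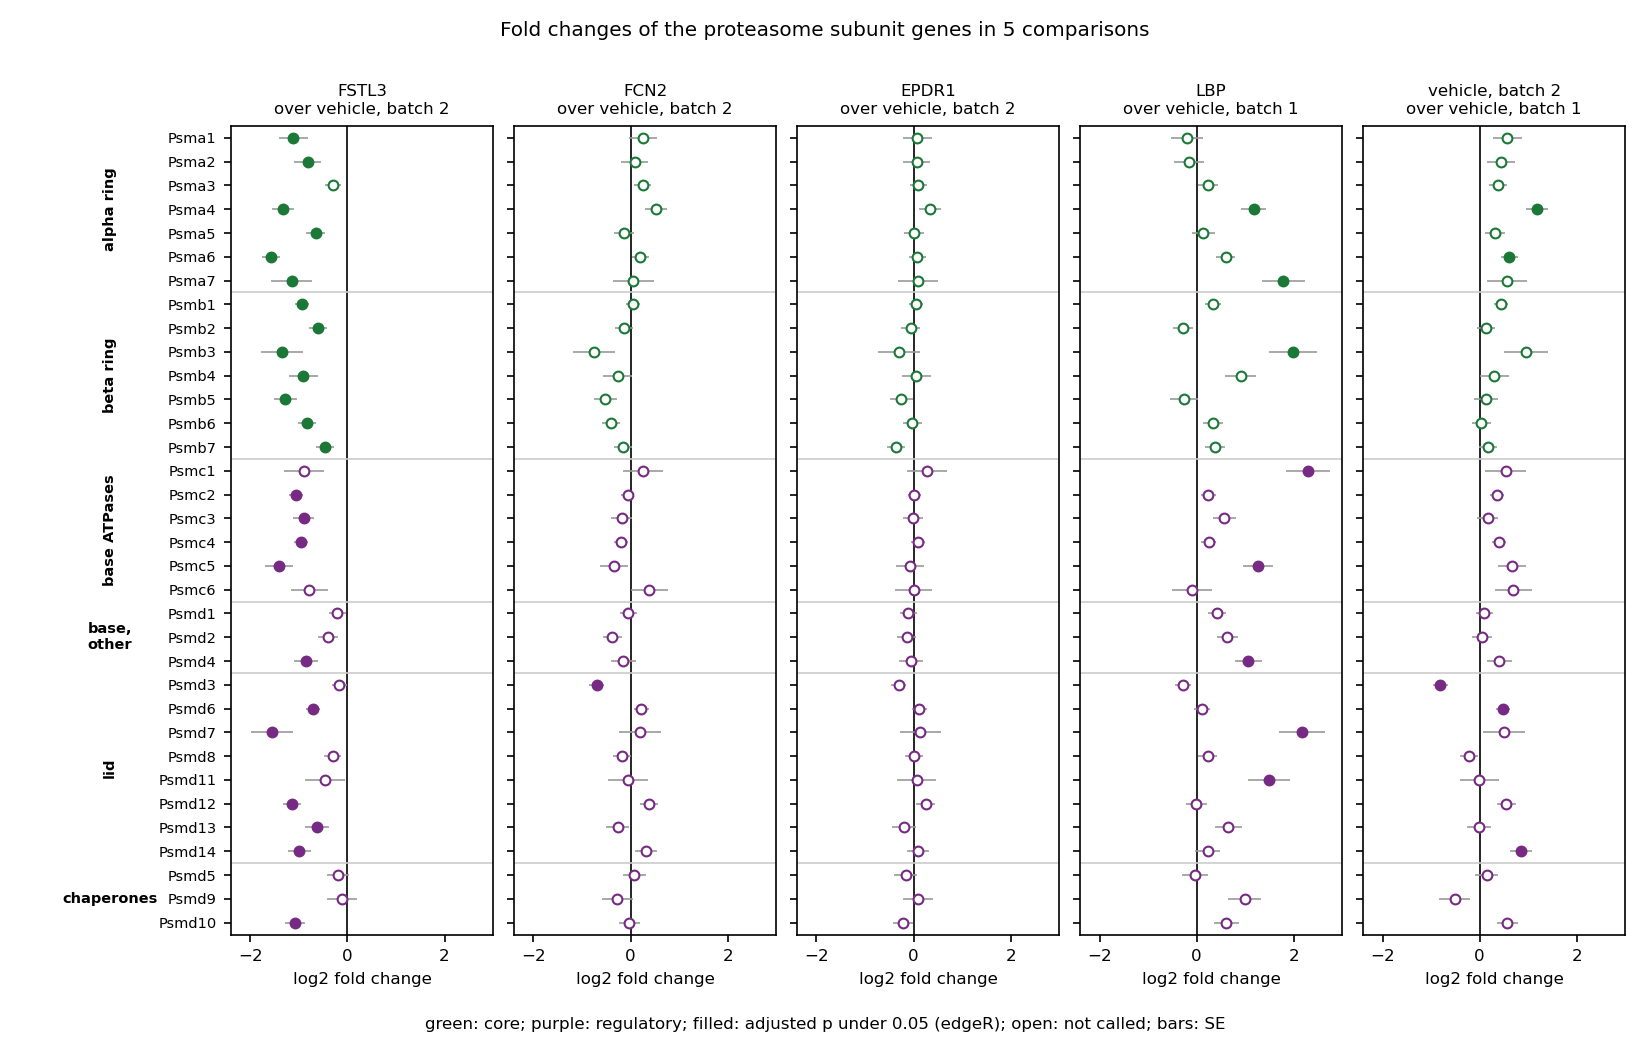
Log2 fold change ± SE of each of the 34 genes in 5 contrasts: FSTL3, FCN2 and EPDR1 against the vehicle of batch 2, LBP against the vehicle of batch 1, and the vehicle of batch 2 against that of batch 1. Green is core, purple regulatory, and filled points passed an adjusted p of 0.05; the FSTL3 panel has 24 filled points, the EPDR1 panel none.

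FCN2 livers had lower Psmd3 than vehicle livers of batch 2 and no other called change. Psmd3 (chr11:98682554-98695979, plus strand), a structural subunit of the lid, had 35.0, 31.6, 31.4 and 27.8 CPM in FCN2 livers, against 55.8, 56.2, 44.8 and 46.2 CPM with vehicle. Every FCN2 library lay below every vehicle library, and the log2 fold change was -0.69 ± 0.15 (adjusted p = 0.0381, edgeR). It was 1 of the 34 genes, where 0.652% of all genes fell; 4 of the 34 had an unadjusted p under 0.05, where 17.3% of all genes did. The call was lost when any library of the comparison other than vehicle replicate 4 was left out. Psmd3 was also lower in FCN2 than in FSTL3 livers, which had 51.8, 44.2, 41.3 and 43.9 CPM (log2 fold change of FSTL3 over FCN2 0.53 ± 0.15, adjusted p = 0.00713). Both contrasts use the same FCN2 libraries. Neither call of Psmd3 passed with the trend on exon length removed. That against vehicle was also lost with DESeq2 size factors and with no filter.

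The other genes lay to both sides in FCN2 livers. The median log2 fold change was -0.06 over all 34, against 0.02 for all genes. It was 0.20 for the alpha ring, with 6 of 7 genes positive, and -0.26 for the beta ring, with 6 of 7 negative; no test of this difference was made. Psma4 had the lowest unadjusted p after Psmd3, at 207, 219, 159 and 239 CPM in FCN2 livers, against 117, 137, 147 and 171 CPM with vehicle, with 1 FCN2 library inside the vehicle range (log2 fold change 0.53 ± 0.23, adjusted p = 0.238). Psmb5 had 12.3, 11.6, 14.7 and 10.4 CPM in FCN2 livers, against 14.1 to 22.6 CPM with vehicle (-0.52 ± 0.24, adjusted p = 0.278), and Psmb6 had 94.6, 74.0, 87.3 and 69.4 CPM, against 91.1 to 118 CPM (-0.40 ± 0.19, adjusted p = 0.282). Both groups overlapped in 1 library for each of these genes. Psmb7 had 57.0, 65.2, 46.4 and 49.4 CPM in FCN2 livers, inside the 45.8 to 74.0 CPM of vehicle. In all, 3 genes lay lower without overlap (Psmb3, Psmc3 and Psmd3; 9.48% of all genes did) and 1 higher (Psmd6; 9.12%).

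Leaving out LBP replicate 2, which is not part of this comparison, raised the number of calls in FCN2 livers. Then 5 genes fell (10.1% of all genes): Psmd3 (log2 fold change -0.70 ± 0.12, adjusted p = 0.00081), Psmb3 (-0.73), Psmb6 (-0.40), Psmd2 (-0.38) and Psmc5 (-0.34). Another 3 rose (8.81% of all genes): Psma4 (0.53), Psmc6 (0.39) and Psmd12 (0.38).

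EPDR1 livers showed no called difference from the vehicle of batch 2 in any subunit gene. The count was 0 of 34 with edgeR, DESeq2 and limma-voom, 0 at an unadjusted p under 0.05 with edgeR (4.12% of all genes), and each of the 3 tools called 0% of all 11969 genes. DESeq2 gave an adjusted p for 11578 of them. The log2 fold changes ran from -0.36 to 0.33 with a median of 0.01. The lowest p-values were those of Psmd3 and Psmb7. Psmd3 had 40.5, 39.7, 44.8 and 39.6 CPM in EPDR1 livers, against 44.8 to 56.2 CPM with vehicle (log2 fold change -0.31 ± 0.15, unadjusted p = 0.0552, adjusted p = 1 by edgeR across all genes). Its groups touched at 44.8 CPM without overlapping. Psmb7 had 34.6, 56.1, 52.0 and 47.5 CPM in EPDR1 livers and overlapped with vehicle (-0.36 ± 0.19, unadjusted p = 0.0671, edgeR across all genes). In all, 2 genes did not overlap, Psma4 and Psmd3, where 4.23% of all genes did not. Psmb5 stood at 11.3, 16.3, 14.2 and 17.2 CPM and Psmb6 at 101, 115, 91.7 and 115 CPM in EPDR1 livers, both overlapping the vehicle libraries.

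FCN2 and EPDR1 livers did not differ in a called subunit gene either. The count was 0 of 34 with edgeR, DESeq2 and limma-voom, 1 gene had an unadjusted p under 0.05 with edgeR (9.17% of all genes did), and edgeR called 0% of all genes. Over all genes DESeq2 called 0.518%, and edgeR without LBP replicate 2 called 4.73% and still none of the 34. DESeq2 gave an adjusted p for 9028 of the 11969 genes here. The gene with the low unadjusted p was Psmd3, at 27.8 to 35.0 CPM in FCN2 livers, against 39.6 to 44.8 CPM in EPDR1 livers, without overlap (log2 fold change -0.39 ± 0.15, adjusted p = 0.461). Next came the ATPase Psmc4, at 102, 93.6, 90.3 and 91.8 CPM in FCN2 livers, against 103, 132, 110 and 116 CPM in EPDR1 livers, also without overlap (-0.29 ± 0.14, adjusted p = 0.558).

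In LBP livers 8 of 34 genes rose against the vehicle of batch 1 and none fell, where 6.73% of all genes rose and 0.969% fell. These calls rested on LBP replicate 2. The ATPase Psmc1 (chr12:100110154-100123405, plus strand) had 1055, 109 and 139 CPM in LBP replicates 2, 3 and 4, against 87.3, 89.0, 90.3 and 83.7 CPM with vehicle (log2 fold change 2.29 ± 0.46, adjusted p = 0.0106, edgeR). Psmd7 had 790, 70.9 and 109 CPM in LBP livers, against 76.3, 71.9, 64.1 and 72.0 CPM with vehicle (2.17 ± 0.47, adjusted p = 0.0111). Replicate 2 alone stood far above vehicle, and for Psmd7 replicate 3 lay within it. The same shape held for Psmb3, with 171, 21.8 and 16.1 CPM in LBP livers, against 14.3 to 18.4 CPM with vehicle (1.99 ± 0.49, adjusted p = 0.0191), and for the alpha subunit Psma7, with 872, 103 and 110 CPM, against 93.9 to 113 CPM (1.79 ± 0.45, adjusted p = 0.0203). The lid subunit Psmd11 had 625, 81.7 and 76.1 CPM in LBP livers, against 75.6 to 106 CPM with vehicle (1.49 ± 0.44, adjusted p = 0.0412).

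Psma4, Psmc5 and Psmd4 were the other called genes. Psma4 had 237, 83.3 and 112 CPM in LBP livers, against 56.2, 63.9, 66.7 and 65.0 CPM with vehicle (1.17 ± 0.25, adjusted p = 0.0107). Psmc5 had 300, 78.1 and 76.9 CPM in LBP livers, against 58.1 to 70.8 CPM with vehicle (1.26 ± 0.31, adjusted p = 0.0191), and Psmd4 had 333, 101 and 118 CPM, against 74.2 to 95.9 CPM (1.07 ± 0.27, adjusted p = 0.0213). For these 3 genes and Psmc1 all LBP libraries lay above all vehicle libraries. The share of all genes that did so was not counted in this comparison. LBP replicate 2 was not raised throughout: Psmc6 had 10.2 CPM there and 122 and 176 CPM in the other LBP livers, and Psma1 had 20.4 CPM there and 123 and 130 CPM in the others.

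Without LBP replicate 2 none of the 34 genes was called in LBP livers (edgeR), where 0.515% of all genes rose and 0.212% fell; 11 had an unadjusted p under 0.05, where 14% of all genes did. The median log2 fold change was 0.24 without it, and 0.36 with it. Psma4 then stood at 0.64 ± 0.16 (adjusted p = 0.0547), Psmc1 at 0.50 ± 0.14 (adjusted p = 0.0705) and Psmd11 at -0.20 (adjusted p = 0.578). With all 3 LBP libraries, limma-voom called none of the 34 genes and DESeq2 called 11. Over all 11969 genes, limma-voom called 2 higher and 1 lower, and DESeq2 994 higher and 194 lower. Among the catalytic subunits, Psmb5 had 4.53, 19.2 and 12.9 CPM in LBP livers, against 14.5 to 18.9 CPM with vehicle, Psmb6 195, 98.9 and 106 CPM, against 94.2 to 120 CPM, and Psmb7 82.7, 59.9 and 68.3 CPM, against 41.1 to 64.1 CPM. Pancreatic acinar markers moved with the library: their summed share was 0.147% in LBP replicate 2, 0.00245% in replicate 3 and 0.0769% in replicate 4, against 0.000909% to 0.0111% with vehicle. With all 3 LBP libraries 5 of 8 tested markers rose, where 6.73% of all genes did. Without LBP replicate 2 none of the 8 passed (0.515% of all genes rose). The part of these markers in the subunit values was not tested.

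The vehicles themselves differed in subunit RNA. In batch 2 vehicle livers 4 genes were higher than in batch 1 vehicle livers (5.41% of all genes) and 1 was lower (6.76%). Psma4 had 117, 137, 147 and 171 CPM in batch 2, against 56.2, 63.9, 66.7 and 65.0 CPM in batch 1, without overlap (log2 fold change 1.18 ± 0.23, adjusted p = 0.00241, edgeR). The deubiquitinase Psmd14 had 87.9, 93.6, 105 and 78.1 CPM in batch 2, against 60.8, 45.7, 49.9 and 45.2 CPM in batch 1 (0.85 ± 0.23, adjusted p = 0.0208). Psma6 had 133, 157, 185 and 171 CPM in batch 2, against 107, 120, 100 and 95.9 CPM in batch 1 (0.61 ± 0.18, adjusted p = 0.0294), and the lid subunit Psmd6 had 94.9, 113, 106 and 96.1 CPM, against 74.2, 82.2, 67.1 and 71.7 CPM (0.48 ± 0.15, adjusted p = 0.0424). None of the 4 overlapped between the batches.

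Psmd3 went the other way, with 55.8, 56.2, 44.8 and 46.2 CPM in batch 2, against 79.9, 106, 84.3 and 88.3 CPM in batch 1 (log2 fold change -0.81 ± 0.15, adjusted p = 0.0017). The calls of Psma4 and Psmd3 were lost by leaving out no single library of the comparison, while that of Psmd6 was lost by leaving out any, and those of Psmd14 and Psma6 by leaving out any of several (Psmd14: batch 2 replicate 3, batch 1 replicates 2, 3 and 4; Psma6: all but batch 2 replicate 1 and batch 1 replicate 2). The median log2 fold change over the 34 genes was 0.39, against -0.00 over all genes, and it was positive for 29 of 34, including all 14 core genes. In 18 of 34 genes batch 2 lay higher without overlap, where 15.9% of all genes did. Without LBP replicate 2, 18 genes were higher (14.9% of all genes) and 2 were lower (15.4%), Psmd3 and the chaperone Psmd9. Mitochondrial protein-coding genes took 7.36% to 11.8% of counts in batch 2 vehicle livers, against 4.15% to 5.26% in batch 1, without overlap. The log2 fold change and exon length had a Spearman correlation of -0.165 over all tested genes and -0.354 over the 34, as a description across genes. With the trend on exon length removed, 4 genes were higher (5.11% of all genes) and 1 lower (5.79%), Psma6 no longer passed (0.33, adjusted p = 0.197) and the median over the 34 was 0.34. The part of these in the difference was not tested, and batch and whatever went with it cannot be told apart here.

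Other genes of the pathway were taken from lists of 44 genes, all of which were tested. In FSTL3 livers 13 fell (16% of all genes did) and 3 rose (23.2%) against the vehicle of batch 2; without LBP replicate 2, 21 fell (25.4%) and 7 rose (31.3%). The fall included Psme2, a subunit of the interferon-inducible cap, which averaged 12.9 ± 0.868 CPM in FSTL3 livers and 35.7 ± 5.63 CPM with vehicle (SD, n = 4 each; log2 fold change -1.46 ± 0.15, adjusted p = 2.24e-07 by edgeR across all genes). Its partner Psme1 (-0.97) and the nuclear cap subunit Psme3 (-1.19) fell as well, while the large activator Psme4 rose (0.62). Of the 6 core assembly factors 3 fell: Pomp, the maturation factor of the core, averaged 60.0 ± 2.89 CPM in FSTL3 livers and 160 ± 10.3 CPM with vehicle (-1.41 ± 0.28, adjusted p = 0.000329 by edgeR across all genes), and the chaperone pair Psmg1 (-0.95) and Psmg2 (-0.56) fell with it.

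Of the 3 immune subunits Psmb8 fell (-0.80). Of 9 further regulatory particle genes and bound enzymes the small lid subunit Sem1 (-0.83), the deubiquitinase Uchl5 (-1.29) and the thioredoxin-like Txnl1 (-1.0) fell, and the ubiquitin ligase Ube3c rose (0.88). Of 11 shuttle and p97 genes the ubiquitin shuttles Rad23b (-0.82) and Ubqln4 (-0.50) and the p97 cofactor Nsfl1c (-0.98) fell. Among 6 ubiquitin and E1 genes none fell and the E1 enzyme Uba6 rose (0.61). Without LBP replicate 2, 2 of these 6 fell and 1 rose (25.4% and 31.3% of all genes did). Of the 11 shuttle and p97 genes 7 then fell and 2 rose. With the trend on exon length removed, Psme4, Ube3c and Uba6 no longer passed, nor did Psme1, Psmg1, Psmg2, Psmb8 and Ubqln4.

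None of the 4 genes of the transcription factor list passed in FSTL3 livers. Without LBP replicate 2, 1 of the 4 fell in FSTL3 livers (25.4% of all genes did) and 1 in FCN2 livers (10.1%). Between the vehicles, 1 was then lower in batch 2 (15.4%). The values below are with all libraries unless stated. Nfe2l1 averaged 97.9 ± 10.8 CPM in FSTL3 livers and 89.3 ± 16.3 CPM with vehicle (SD, n = 4 each), with a log2 fold change of 0.13 (adjusted p = 0.786 by edgeR across all genes), and Nfe2l2 stood at 0.03 (adjusted p = 0.939). Against vehicle, Nfe2l1 stood at -0.48 in FCN2 livers (adjusted p = 0.477) and at -0.15 in EPDR1 livers (adjusted p = 1). In LBP livers Nfe2l1 had 631, 128 and 148 CPM, against 139 to 171 CPM with vehicle (1.02, adjusted p = 0.0781), and its log2 fold change was -0.09 without LBP replicate 2. Nfe2l2 stood at 0.13 in FCN2 livers, -0.25 in EPDR1 livers and -0.39 in LBP livers, with no call. Between the vehicles, batch 2 over batch 1, Nfe2l1 stood at -0.72 (adjusted p = 0.165) and Nfe2l2 at 0.15 (adjusted p = 0.776).

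None of the 44 genes passed in FCN2 livers, where 0.159% of all genes rose and 0.652% fell, or in EPDR1 livers. With LBP replicate 2 left out, 5 rose (8.81% of all genes did) and 9 fell (10.1%) in FCN2 livers and still none passed in EPDR1 livers. In LBP livers Psme1 (1.33), Pomp (1.22) and the segregase Vcp (1.58) rose and the ubiquitin receptor Adrm1 fell (-1.11). These 3 and 1 of 44 stand beside 6.73% of all genes that rose and 0.969% that fell, and without LBP replicate 2 none passed. Between the vehicles, Psme2 (0.67), Uchl5 (0.92) and Txnl1 (0.92) were higher in batch 2, and Adrm1 (-1.26) and the p97 cofactor Nploc4 (-0.85) were lower, where 5.41% of all genes were higher and 6.76% lower. The counts without LBP replicate 2 were 11 higher (14.9%) and 5 lower (15.4%).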

How the data were processed

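The authors deposited raw read counts per gene for 23 liver libraries. Alignment used STAR 2.6.0c and the GRCm38 genome according to the submitters' processing notes. Counting used featureCounts 1.6.3 on the genes of Ensembl release 95, per the file headers, in whose command no option for strand, pairing or multi-mapped reads appears. After filterByExpr kept 11969 genes, TMM factors were computed and a quasi-likelihood model with robust dispersion was fitted to all 23 libraries, with a mean per group (edgeR 4.0.16, R 4.3.3; common dispersion 0.0774). Benjamini-Hochberg adjustment covered all genes tested, and an adjusted p under 0.05 was a call. The steps were tested on simulated data. CPM uses the TMM-scaled library size and TPM the exon length in the file. Alternatives included DESeq2 1.42.0, limma 3.58.1 (voom), other filters and scalings, and each library left out. To remove the trend on exon length, each library's lowess curve (span 0.3) of log2 CPM on length entered as an offset.

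The genes, lists and comparisons were chosen with earlier results of these data known. Values per library are given for the catalytic subunits and for the genes past the threshold in a comparison (with over 8, the 4 highest and 4 lowest log2 fold changes; with none, the 2 lowest p-values); other genes named were chosen after their values were seen. No pair of replicates agreed within sampling noise (chi-square per degree of freedom at least 2.47). A planned look at protein sequences was not made.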

Additional observations from a re-analysis of the deposited data

Results flagged for a closer look

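Within groups of 4 libraries, 1 library stood apart from the other 3 in 9 of 110 groups examined by Dixon's test, where chance gives about 1 in 20. In FSTL3 livers these were Psmb3 in replicate 1, with 14.9 CPM against 11.1 to 11.6 CPM in the others, and Psmc1 in replicate 2, with 64.3 CPM against 69.4 to 70.4 CPM. The ratio of core to regulatory TPM in FSTL3 replicate 4 was 0.759, against 0.799 to 0.801. In FCN2 livers Psmd7 stood at 87.3 CPM in replicate 3, against 121 to 128 CPM, and in EPDR1 livers Psmd3 stood at 44.8 CPM in replicate 3, against 39.6 to 40.5 CPM. In batch 2 vehicle livers Psma3 had 19.4 CPM in replicate 4, against 24.5 to 24.9 CPM, Psmb2 had 50.8 CPM in replicate 1, against 57.6 to 58.5 CPM, and Psmd12 had 100 CPM in replicate 1, against 126 to 128 CPM. In batch 1 vehicle livers the ratio of core to regulatory TPM was 0.908 in replicate 3, against 0.823 to 0.832. The LBP group has 3 libraries and was not examined in this way.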

How the results depend on the processing

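Counts are of the 34 genes called in either direction. FSTL3 against the vehicle of batch 2 gave 24, 12 with the exon length trend removed, 10 with the vehicle of batch 1 as control, and 20 to 29 over the fits that leave out 1 library. FSTL3 against EPDR1 gave 22, 11 with the length trend removed and 19 to 28 over single libraries; FSTL3 against FCN2 gave 23, 15 and 17 to 28. FCN2 against vehicle gave 1, and 0 with DESeq2 size factors, with no filter, with the length trend removed, with the replicate block or without the FSTL3 libraries, 3 with only the libraries compared, and 0 to 8 over single libraries. LBP against vehicle gave 8, 0 with limma-voom, with only the libraries compared or with the replicate block, 5 with no filter, 13 with the length trend removed, and 0 to 15 over single libraries. The batch 2 against the batch 1 vehicle gave 5, 9 with DESeq2, 1 with no filter, 21 with only the libraries compared, 3 without the FSTL3 libraries, and 2 to 20 over single libraries. Counts over all genes moved too. With only the libraries compared, they were 1905 higher and 2057 lower of 9928 for the vehicles and 569 and 840 of 10155 for FCN2. For LBP, limma-voom called 2 higher and 1 lower of 11969 genes, and the replicate block 2 and 0. With only the libraries compared it was 0 of 10017. For LBP, no filter gave 379 higher and 25 lower of 31250 genes, and removing the length trend gave 1150 and 115 of 11969. Leaving out LBP replicate 2 gave 63 higher and 26 lower of 12244 for LBP, and leaving out LBP replicate 4 gave 1695 and 251 of 12333. For FCN2, leaving out LBP replicate 2 gave 1079 higher and 1235 lower of 12244, and leaving out FCN2 replicate 4 gave 0 of 11941. For the vehicles, DESeq2 called 999 higher and 1092 lower, and no filter 286 and 373 of 31250. Without the FSTL3 libraries the vehicles gave 443 higher and 564 lower of 10936. Among the 34 genes, EPDR1 against vehicle and FCN2 against EPDR1 gave 0 throughout. Among alternatives chosen after seeing the data, leaving out the FSTL3 libraries and LBP replicate 2 together gave 5 for FCN2, 0 for LBP and 20 for the vehicles, and removing the length trend without LBP replicate 2 gave 10, 0 and 19. Over all genes, the former gave 794 higher and 1014 lower of 11353 for FCN2, 16 and 3 for LBP, and 1670 and 1621 for the vehicles. The latter gave 1301 and 1102 of 12244 for FCN2, 64 and 44 for LBP, and 1783 and 1850 for the vehicles. The causes were not tested. Signs reversed for Psma5 and Psmb2 with the length trend removed, with all libraries and without LBP replicate 2: 0.031 and 0.025 (Psma5) and 0.12 and 0.12 (Psmb2) for FSTL3 against vehicle, 0.061 and 0.056 (Psma5) and 0.23 and 0.22 (Psmb2) against EPDR1, and 0.055 and 0.050 (Psma5) and 0.16 and 0.14 (Psmb2) against FCN2. Psmd11 in LBP livers reversed to -0.20 without LBP replicate 2, -0.20 without the FSTL3 libraries as well, and -0.19 with the length trend removed, and its range over single libraries was -0.20 to 1.9.

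For libraries of different groups with the same replicate number, correlations of deviations ran from -0.161 to 0.293 (median 0.0312, 55 pairs). With different numbers they ran from -0.254 to 0.227 (median -0.0141, 165 pairs), and the difference was not tested. The labels tie no number to a shared animal or day, so numbers were not taken to pair samples. With the number as a replicate block, FSTL3 against vehicle gave 23, FSTL3 against EPDR1 and against FCN2 22 each, and the vehicles 4. Low genes rest on few reads: Psmb5 was counted from 4 to 387 reads per library. The 4 reads were in LBP replicate 2, which held 1463037 counts in total. The shallowest library, replicate 2 of the batch 1 vehicle with 773499 counts, had 13.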
